A study of Homo sapiens with 36 samples.

Results

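The genes described here are the antiapoptotic members of the BCL2 and inhibitor of apoptosis (IAP) families in A549, an established human lung adenocarcinoma line: BCL2A1, BCL2, BCL2L1, BCL2L2, MCL1, BIRC2, BIRC3 and XIAP, together with CFLAR, which encodes the caspase-8 inhibitor cFLIP. They were chosen by symbol, each matched to 1 Ensembl gene, and make up 9 of the 63677 genes in the count tables. All 9 passed the filter on low counts and were among the 19180 genes tested. Cells were grown in 1 ng/ml IL-1β or without it. RNA came from cells exposed for 6, 15 or 21 days, and from cells that had been exposed for 21 days and then grown without the cytokine for another 6, 15 or 30 days. Each of these 6 time points had its own untreated control, and each of the 12 groups held 3 libraries, A, B and C, described as biological replicates of the 1 line. In bulk RNA a higher level per cell and a larger share of expressing cells cannot be told apart.

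Apoptosis through mitochondria starts when BAX and BAK1 form pores in the outer mitochondrial membrane. The antiapoptotic BCL2 proteins hold these effectors, and the BH3-only proteins that activate them, in check, while XIAP blocks caspases directly. The cellular IAPs, encoded by BIRC2 (cIAP1) and BIRC3 (cIAP2), are ubiquitin ligases of TNF receptor complexes and NF-κB signalling, and cFLIP competes with caspase-8 for the adaptor FADD. BCL2A1, BIRC3 and CFLAR are known targets of NF-κB, the transcription factor that IL-1β activates.

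The upstream sequences of 3 genes are shown because they belong to the member with the largest fold change and to the members with a κB match. They are the 250 bases before the annotated start in RefSeq (table of GRCh38.p14), 5′ to 3′ on the strand of the gene, and each was located by exact match in GRCh37. Where RefSeq lists several starts, the first entry is shown, which for CFLAR, with 4 entries, lies 2562 bases downstream of the gene's start in GENCODE. Capitals mark matches to the degenerate 10-base κB consensus or to the 9-base patterns GGGNNTTCC and GGANNTTCC, searched on both strands, which overlap one another.
BCL2A1, chr15:80263539-80263788, minus strand: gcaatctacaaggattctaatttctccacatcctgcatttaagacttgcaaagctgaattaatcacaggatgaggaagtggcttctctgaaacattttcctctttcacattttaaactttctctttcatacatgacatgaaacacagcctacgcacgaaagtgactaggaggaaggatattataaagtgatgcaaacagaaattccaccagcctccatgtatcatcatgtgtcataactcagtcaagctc
BIRC3, chr11:102187965-102188214, plus strand: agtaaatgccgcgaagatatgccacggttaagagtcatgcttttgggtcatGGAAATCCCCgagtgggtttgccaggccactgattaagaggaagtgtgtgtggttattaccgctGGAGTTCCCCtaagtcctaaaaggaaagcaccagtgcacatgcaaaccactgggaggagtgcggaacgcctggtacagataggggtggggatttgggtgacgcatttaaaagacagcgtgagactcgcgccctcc
CFLAR, chr2:201983189-201983438, plus strand: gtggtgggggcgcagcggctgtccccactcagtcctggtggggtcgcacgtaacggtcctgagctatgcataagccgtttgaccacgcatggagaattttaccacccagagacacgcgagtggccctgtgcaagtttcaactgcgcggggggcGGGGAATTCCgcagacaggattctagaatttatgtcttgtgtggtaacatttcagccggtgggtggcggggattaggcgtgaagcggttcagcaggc

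The window of BIRC3 held 2 matches to the κB consensus, both on the opposite strand, the first from base -199 to -190 and the second from -135 to -126 relative to the start. The window of CFLAR held 1, from base -97 to -88, and the other 3 entries of CFLAR held none. No match to any of the 3 patterns was found in the windows of BCL2A1 (1 entry), BIRC2 and BCL2L1 (2 each) and XIAP (3), which says only that these letters are not there. Over the 35116 RefSeq windows of the same length, 9.96% held the consensus, 5.78% GGGNNTTCC, 3.84% GGANNTTCC and 14.9% any of them. For BCL2L2 and MCL1 no window was available in the sequences used, and BCL2 was left out of the search results given here.

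Between 9116032 and 23570026 reads per library lay on genes. Levels are given as CPM, reads of a gene scaled to library size by the TMM method of edgeR. In 11 libraries (6 control, 5 IL-1β, and 8 of them replicate B) the mitochondrial genes held 11.8% to 24.6% of the gene counts, against 5.61% to 7.75% in the other 25. Replicates A, B and C held 1, 8 and 2 of these 11 libraries. Fits without replicate A therefore keep most of them, and every fit without a replicate has fewer libraries per group. Values without the 11 libraries stand beside the results in which they weigh most. Of the epithelial markers KRT8, KRT18 and CDH1 were abundant, with median levels of 2183, 1096 and 188 CPM over all libraries, while EPCAM had 4 to 32 counts per library and KRT19 0 to 4. The alveolar type II markers NKX2-1, SFTPB and SFTPC had at most 3, 19 and 5 counts, and the leukocyte and endothelial markers PTPRC, CD68 and CDH5 at most 3, 7 and 2, with CD3E at 0.

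In untreated cells the members differed widely in level per kb of exon. BCL2L1, which encodes BCL-xL, stood highest at 56.5 ± 12.7 CPM per kb (SD, n = 18 control libraries), followed by MCL1, which encodes a short-lived protein that restrains BAK1, at 25.1 ± 2.37. BIRC3 had 16.5 ± 5.16, BIRC2 11.1 ± 1.23 and XIAP 7.22 ± 0.616 CPM per kb. At the low end were BCL2L2 (BCL-w) at 4.91 ± 1.11, CFLAR at 3.01 ± 0.255, BCL2A1 at 1.25 ± 0.731 and BCL2 at 0.247 ± 0.0507 CPM per kb. The ranges of neighbours in this order overlapped, except between BIRC2 and XIAP and between BCL2A1 and BCL2. The lowest BCL2L1 value, 29.4 CPM per kb, came from a library of high mitochondrial share. Among the 12 controls of low share BCL2L1 had 64.4 ± 3.88 and MCL1 25.7 ± 2.10 CPM per kb (SD). The order was the same per kb of the longest transcript.

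**Figure D1:**
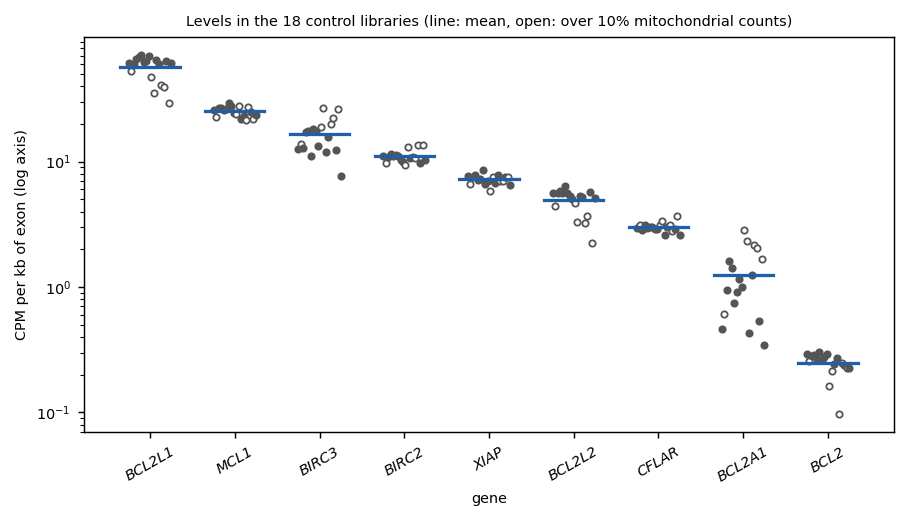
Level of each gene in CPM per kb of exon (log axis) in the 18 untreated libraries, 1 point per library, open where mitochondrial genes held over 10% of the counts, with the mean as a line. The means fall from 56.5 for BCL2L1 to 0.247 for BCL2.

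In the 9 libraries with IL-1β present the order was different. BCL2L1 had 60.7 ± 10.7 CPM per kb (SD), with BIRC3 beside it at 54.6 ± 15.7 and above MCL1 at 32.9 ± 3.98. The highest BIRC3 value, 91.45, and the lowest BCL2L1 value, 33.53, came from the same library of high mitochondrial share, replicate C of day 15. BIRC2 had 20.4 ± 3.47 and BCL2A1 16.1 ± 4.45 CPM per kb, ahead of XIAP at 9.10 ± 0.972. BCL2L2 (5.50 ± 1.14), CFLAR (4.75 ± 0.427) and BCL2 (0.318 ± 0.100) came last.

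IL-1β was compared with the control of the same time point to find which of these genes change with the cytokine and which remain changed once it is gone. BCL2A1 and BIRC3 rose severalfold during exposure, and BIRC2 and CFLAR rose less. Past both thresholds, an adjusted p under 0.05 and a fold change over 2, were 2, 3 and 2 of the 9 members in time order, all higher. Over all genes tested these shares were 2.77%, 4.24% and 4.26%. By the adjusted p alone 4 of 9 members rose at each time point of exposure and none fell, against 4.27%, 6.43% and 6.4% of all genes in either direction. The median log2 fold change of the 9 members was 0.34, 0.38 and 0.42, beside -0.02, -0.02 and -0.01 over all genes.

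The epithelial markers moved the opposite way at the same time points. KRT8, KRT18 and CDH1 were lower past both thresholds at all 3 time points of exposure, 3 of the 4 epithelial markers tested. KRT8 had 3996 ± 307 CPM in the day 6 controls (SD, n = 3) and 937 ± 31.3 with IL-1β, and CDH1, which encodes E-cadherin, had 196 ± 14.7 CPM at day 21 against 41.6 ± 19.0. At day 6 after withdrawal KRT18 and CDH1 were still lower (log2 fold changes of -1.21 and -1.29, adjusted p = 0.0440 and 0.0105), and at days 15 and 30 edgeR and DESeq2 called none, with 4 and 2 of the 4 at an unadjusted p under 0.05 by edgeR. Their part in the values of the members was not tested.

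BCL2A1, which encodes the BH3-binding protein A1, rose from a low level. At day 6 the controls A, B and C had 0.458, 0.609 and 0.945 CPM and the IL-1β libraries 11.9, 11.3 and 17.6. At day 15 the controls had 1.60, 1.41 and 0.742 CPM and the IL-1β libraries 16.4, 16.8 and 26.0. At day 21 they had 0.912, 1.15 and 0.996 CPM against 13.9, 17.2 and 12.8. Every IL-1β library lay far above every control of its time point. The fold changes were 19.9 (95% interval 9.46 to 41.8, adjusted p = 2.03e-06), 15.8 (7.85 to 31.6, adjusted p = 1.86e-06) and 14.3 (7.12 to 28.8, adjusted p = 2.93e-06). The control libraries held only 7 to 27 reads of BCL2A1, so the denominators of these ratios are imprecise.

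BIRC3 rose from a level that was already among the higher ones. At day 6 the controls had 94.0, 104 and 96.4 CPM and the IL-1β libraries 455, 464 and 367. At day 15 the controls had 130.1, 131 and 82.4 CPM and the IL-1β libraries 382, 367 and 684. At day 21 they had 137, 131 and 99.7 CPM against 309.9, 315 and 331. The groups did not overlap, and the highest value, replicate C of day 15, belongs to a library of high mitochondrial share. The fold changes were 4.37 (95% interval 2.65 to 7.18, adjusted p = 0.000166), 4.17 (2.54 to 6.84, adjusted p = 0.000174) and 2.60 (1.60 to 4.23, adjusted p = 0.00961). Without the 11 libraries of high share the day 15 value was 1.71 on the log2 scale, in place of 2.06, and still passed both thresholds (adjusted p = 8.14e-06). Without replicate A the calls at days 6 and 21 were lost (adjusted p = 0.106 and 0.293). The log2 fold changes without it were 2.07 and 1.4951, in place of 2.13 and 1.38.

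BIRC2 lies 7807 bases downstream of BIRC3 on the same strand of chromosome 11 (GRCh37, chr11:102217942-102249401, against chr11:102188215-102210134 for BIRC3). At day 6 the controls had 50.01, 44.5 and 49.6 CPM and the IL-1β libraries 76.7, 83.97 and 87.9. At day 15 the controls had 52.4, 50.4 and 51.1 CPM and the IL-1β libraries 99.9, 91.8 and 129.9. At day 21 they had 50.4, 46.6 and 44.6 CPM against 91.3, 87.1 and 80.8. All IL-1β libraries stood above all controls of their time point. The fold changes were 1.73 (95% interval 1.39 to 2.14, adjusted p = 0.00121), 2.09 (1.68 to 2.60, adjusted p = 1.97e-05) and 1.83 (1.47 to 2.27, adjusted p = 0.000252). The value at day 15 passed 2-fold narrowly, and its log2 fold change was 0.90 without the libraries of high mitochondrial share. Without replicate A the calls at days 6 and 21 were lost (adjusted p = 0.0982 and 0.0705). Of the other genes tested within 200000 bases, YAP1 and TMEM123 had log2 fold changes of 0.16 ± 0.10 and -0.18 ± 0.37 (SE) at day 21 (adjusted p = 0.593 and 1.000), while the matrix metalloprotease gene MMP7 had -1.86 ± 0.43 (adjusted p = 0.00473).

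CFLAR rose by a similar amount at each time point of exposure. At day 6 the controls had 66.2, 70.5 and 63.8 CPM and the IL-1β libraries 108, 112 and 95.7. At day 15 the controls had 70.1, 66.2 and 68.2 CPM and the IL-1β libraries 107, 100.4 and 119.8. At day 21 they had 67.3, 65.6 and 65.6 CPM against 100.1, 97.4 and 122. The groups were apart each time, and the controls spread little. The fold changes were 1.57 (95% interval 1.30 to 1.90, adjusted p = 0.00229), 1.60 (1.32 to 1.93, adjusted p = 0.00108) and 1.61 (1.33 to 1.95, adjusted p = 0.000865). All 3 calls were lost without replicate A (adjusted p = 0.360, 0.157 and 0.141). The log2 fold changes without it were 0.64, 0.73 and 0.75, in place of 0.65, 0.68 and 0.69. The call of day 15 was also lost in a fit of the time point alone (adjusted p = 0.0732).

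**Figure D2:**
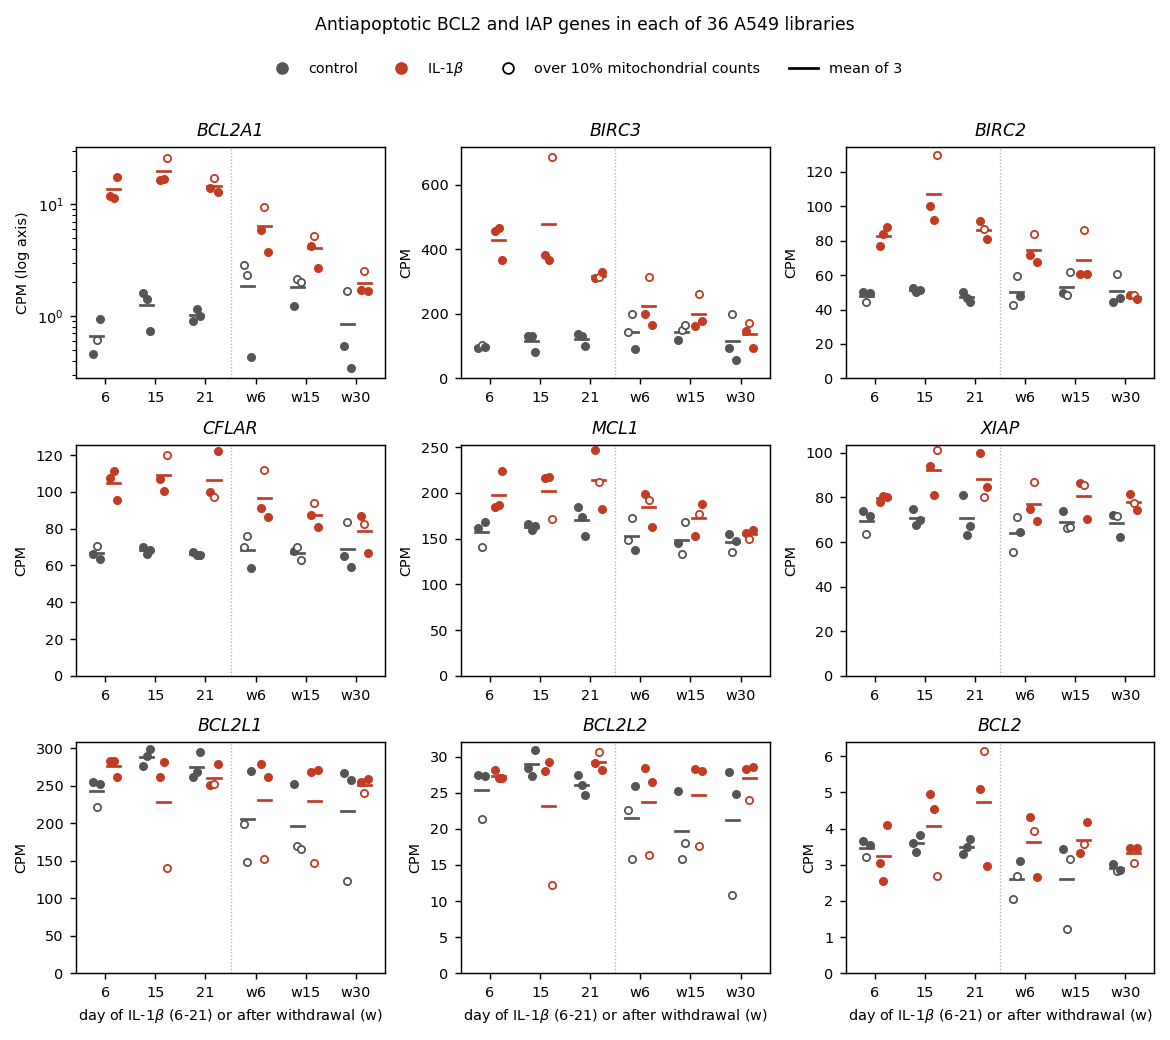
CPM of the 9 genes in each library by time point (6 to 21, days of IL-1β; w6 to w30, days after withdrawal), control in grey and IL-1β in red, open points for libraries with over 10% mitochondrial counts and lines for means of 3; the axis of BCL2A1 is logarithmic and the others start at 0. For BCL2A1, BIRC3, BIRC2 and CFLAR the IL-1β points lie above the controls at 6 to 21 days.

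MCL1 and XIAP stood a little higher with IL-1β without passing the threshold at a single time point. For MCL1 the control means were 157 ± 14.1, 163 ± 3.27 and 170.4 ± 16.2 CPM (SD, n = 3) and the IL-1β means 198 ± 22.3, 202 ± 26.5 and 214 ± 32.5. For XIAP, which inhibits caspases by direct binding, they were 69.6 ± 5.45, 70.8 ± 3.65 and 70.5 ± 9.41 CPM against 79.5 ± 1.499, 92.1 ± 10.4 and 88.4 ± 10.4. For both genes the groups were apart at days 6 and 15 and overlapped at day 21. Such separation was not counted over all genes, and it also occurred for members that were not called. It was seen for BCL2L1 at day 6 (262 to 283 CPM against 221 to 255 in controls) and BCL2L2 at day 21 (28.1 to 30.7 against 24.6 to 27.4). At day 30 after withdrawal XIAP and BCL2 showed it too. The adjusted p was 0.217, 0.217 and 0.195 for MCL1 and 0.686, 0.0669 and 0.154 for XIAP. XIAP passed at day 15 by DESeq2's Wald test (0.41 on the log2 scale, adjusted p = 0.0227), and once the 11 libraries were left out MCL1 passed at day 15 and XIAP at day 21 (adjusted p = 0.0388 and 0.0269).

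The mean of the 3 responses, a contrast added after seeing the data, was past the adjusted p for 6 of the 9 members, all higher, where 15.3% of all genes passed in either direction. MCL1 was raised 1.25-fold (95% interval 1.12 to 1.39, adjusted p = 0.00269) and XIAP 1.23-fold (1.11 to 1.36, adjusted p = 0.00312). For MCL1 this was lost without replicate A or B (adjusted p = 0.102 and 0.0668), and for XIAP without A or C (adjusted p = 0.0517 and 0.0854). The other 4 were raised 16.5-fold (BCL2A1), 3.62-fold (BIRC3), 1.88-fold (BIRC2) and 1.59-fold (CFLAR). These intervals and p-values take the libraries of the 3 time points as independent. Whether same-lettered libraries came from 1 passaged culture was not tested.

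No change past the threshold was found for BCL2L1, BCL2L2 or BCL2 at any of the 6 time points. For BCL2L1 the log2 fold change, with its 95% interval, was 0.18 (-0.37 to 0.73), -0.34 (-0.89 to 0.22) and -0.08 (-0.63 to 0.47) at days 6, 15 and 21. For BCL2L2 it was 0.11 (-0.47 to 0.69), -0.31 (-0.89 to 0.27) and 0.17 (-0.41 to 0.75). BCL2, the founding member, was low throughout, with 12 to 99 reads per library, and had -0.10 (-0.68 to 0.48), 0.19 (-0.37 to 0.76) and 0.42 (-0.14 to 0.98). The mean over the 3 time points was -0.08 (-0.40 to 0.24) for BCL2L1 and -0.01 (-0.34 to 0.32) for BCL2L2.

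The levels of BCL2L1 and BCL2L2 moved with the mitochondrial share of a library. BCL2L1 had 251 to 299 CPM in the 25 libraries of low share and 124 to 252 in the 11 of high share, of which 10 lay below the lowest of the 25. BCL2L2 had 24.6 to 31.0 CPM against 10.8 to 30.7, again with 10 of 11 below. Both treatments showed it: BCL2L1 had a median of 268 CPM in the 12 control libraries of low share and 168 in the 6 of high share, and 268 against 153 CPM in 13 and 5 IL-1β libraries. For each of the other 7 members at most 2 of the 11 lay below the 25. The range of the 25 covers both treatments, so it is wide for the members that rose with IL-1β. BCL2 still had a lower median at high share in the controls, 2.75 against 3.47 CPM, and 3.56 against 3.46 with IL-1β. BIRC3 lay the other way in the controls, with a median of 158 CPM at high and 98.1 CPM at low share. So did BCL2A1 (2.09 against 0.928), BIRC2 (53.9 against 49.6) and CFLAR (70.25 against 65.9). Control medians of MCL1 (144.9 against 160.6 CPM) and XIAP (66.5 against 70.65) were lower at high share. Without the 11 libraries the day 15 log2 fold changes were -0.08 ± 0.08 (SE) for BCL2L1 and -0.01 ± 0.09 for BCL2L2, in place of -0.34 and -0.31.

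**Figure D3:**
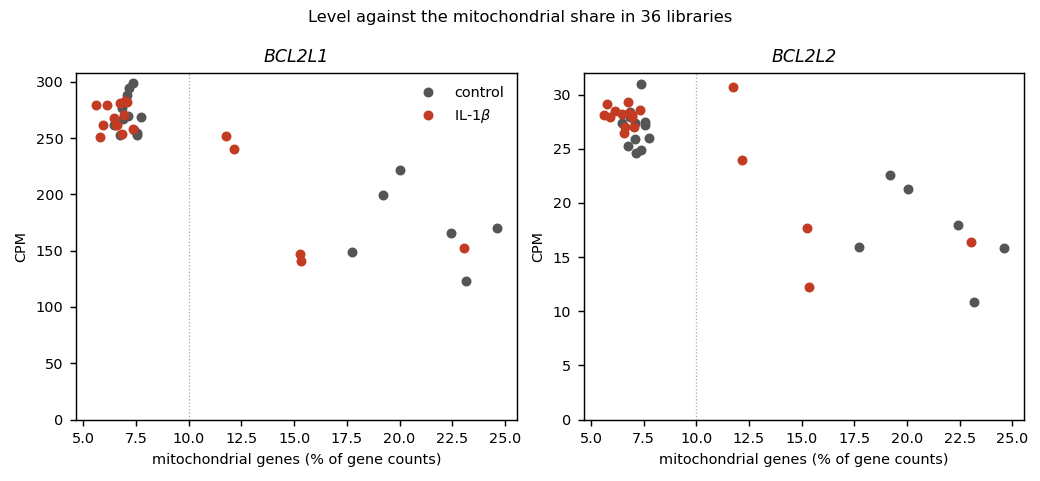
CPM of BCL2L1 (left) and BCL2L2 (right) against the percentage of gene counts on mitochondrial genes in the 36 libraries, control in grey and IL-1β in red. Libraries beyond 10% of both treatments reach lower levels, down to 124 CPM for BCL2L1 and 10.8 CPM for BCL2L2.

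After withdrawal fewer members were called. At day 6 without IL-1β, 1 of 9 passed both thresholds and 3 the adjusted p alone, all higher, against 1.8% and 2.62% of all genes. At days 15 and 30 none passed by edgeR or by DESeq2, with 3 and 1 at an unadjusted p under 0.05. Of all genes 0.954% and 0.897% passed both thresholds then, and 1.36% and 1.31% the adjusted p. The median log2 fold change of the members was 0.45, 0.38 and 0.20, beside -0.0014, 0.02 and -0.0039 over all genes.

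BCL2A1 had the largest estimate after withdrawal. At day 6 the controls had 2.84, 2.33 and 0.429 CPM and the cells exposed before 5.84, 9.51 and 3.77. At day 15 they had 1.23, 2.14 and 2.03 CPM against 4.23, 5.24 and 2.70, and at day 30 0.538, 1.67 and 0.344 against 1.70, 2.54 and 1.68. The previously exposed libraries were the higher ones each time, at day 30 by a margin far smaller than the spread of either group. The fold changes were 3.64 (95% interval 1.84 to 7.22, adjusted p = 0.0276), 2.27 (1.15 to 4.47, adjusted p = 0.381) and 2.69 (1.26 to 5.75, adjusted p = 0.315). The day 6 call was lost without replicate A or B (adjusted p = 0.376 and 0.209) and in a fit of that time point alone (adjusted p = 0.709).

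Control levels of BCL2A1 also moved with the mitochondrial share: 0.609 to 2.84 CPM (median 2.09) in the 6 controls of high share and 0.344 to 1.60 (median 0.928) in the 12 others. Without the 11 libraries, which leaves 1 control each at days 6 and 15 after withdrawal, assumed to vary like the other groups, the response was 3.48, 1.47 and 1.94 on the log2 scale at days 6, 15 and 30 (adjusted p = 0.000607, 0.297 and 0.0375). With a high share as a covariate they were 2.22, 1.44 and 1.45 (adjusted p = 4.33e-05, 0.0134 and 0.0371). The mean over the 3 time points after withdrawal, also a contrast added after seeing the data, was 2.81 (95% interval 1.87 to 4.23, adjusted p = 0.000647) as a fold change, and 1.49 on the log2 scale. Without replicate A it was not called (adjusted p = 0.0922), and without the 11 libraries the log2 value was 2.30.

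BIRC3 overlapped its controls after withdrawal. At day 6 the controls had 143, 200.2 and 90.0 CPM and the cells exposed before 198, 314 and 164. At day 15 they had 118, 150.0 and 166 CPM against 163, 260.2 and 177, and at day 30 92.7, 198 and 57.9 against 146, 171 and 94.2. The highest control was a library of high mitochondrial share each time. Among the libraries of low share the cells exposed before had 198 and 164 CPM at day 6, against 90.0 in the control. At day 15 these were 163 and 177 against 118, and at day 30 146 and 94.2 against 92.7 and 57.9. The log2 fold changes were 0.64 ± 0.34, 0.47 ± 0.34 and 0.24 ± 0.34 (SE, adjusted p = 0.599, 0.807 and 0.883). With a high share as a covariate the day 6 value was 0.86 and passed (adjusted p = 0.0194). Likewise the mean over the 3 time points was 0.45 ± 0.19 (adjusted p = 0.194) and passed with the covariate at 0.62 (adjusted p = 0.00134).

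BIRC2 lay within the range of its controls at day 30, the top of which came from a library of high mitochondrial share. At day 6 after withdrawal the controls had 42.5, 59.4 and 47.9 CPM and the cells exposed before 72.0, 83.7 and 67.5. At day 15 they had 49.5, 48.3 and 61.8 CPM against 60.5, 86.1 and 60.5, and at day 30 44.4, 60.9 and 46.8 against 48.2, 48.6 and 45.9. The groups were apart at day 6, and at days 15 and 30 they overlapped. The log2 fold changes were 0.57 ± 0.15, 0.38 ± 0.15 and -0.09 ± 0.15 (SE, adjusted p = 0.0345, 0.383 and 0.903). For CFLAR the day 6 controls had 69.9, 76.1 and 58.6 CPM and the cells exposed before 91.0, 112 and 86.6. At day 15 they had 67.9, 70.0 and 63.2 CPM against 87.5, 94.0 and 80.8, and at day 30 65.1, 83.4 and 59.0 against 86.6, 82.3 and 66.8. The CFLAR groups were apart at days 6 and 15 and overlapped at day 30. Its log2 fold changes were 0.50 ± 0.13, 0.38 ± 0.13 and 0.19 ± 0.13 (adjusted p = 0.0345, 0.224 and 0.780). Leaving out any 1 replicate lost the day 6 call of both genes, with adjusted p of 0.104 to 1.000 for BIRC2 and 0.124 to 0.791 for CFLAR. Without the 11 libraries, with 1 control left at day 6, both calls held (0.56 and 0.62 on the log2 scale, adjusted p = 0.0103 and 0.0261).

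The test of the change itself, from the response at day 21 to that at day 30 without IL-1β, was passed by BIRC2 alone among the members, with a change of -0.96 ± 0.22 on the log2 scale (SE, adjusted p = 0.0239), where 0.73% of all genes passed. That call was lost without any 1 replicate (adjusted p = 0.684, 0.346 and 0.163 without A, B and C). BCL2A1 had a change of -2.41 ± 0.72 with an adjusted p of 0.179, and BIRC3 one of -1.14 ± 0.48 (adjusted p = 0.642). By DESeq2's Wald test BCL2A1 passed as well (adjusted p = 0.0404). From day 21 to day 6 after withdrawal no member passed by edgeR or DESeq2, where 0.141% of all genes did, and 1 had an unadjusted p under 0.05. From day 6 to day 21 of exposure none passed by either tool, beside 0.0104% of all genes, and 0 had an unadjusted p under 0.05. These changes share their day 21 libraries.

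**Figure D4:**
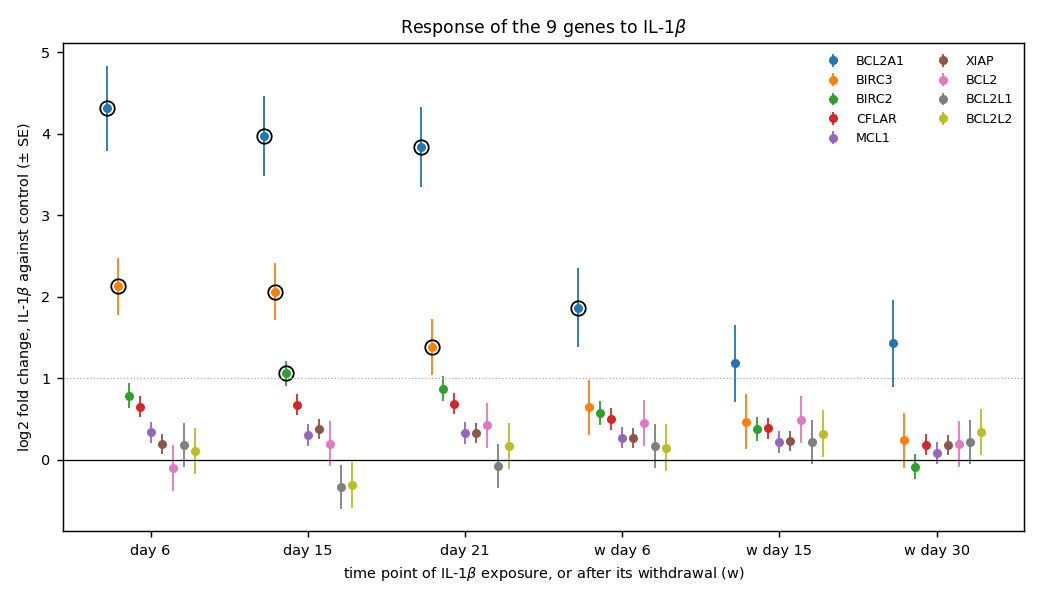
Log2 fold change of IL-1β against the control of the same time point (points, ± SE) for the 9 genes at the 6 time points; rings mark calls past both thresholds. BCL2A1 lies between 3.84 and 4.31 during exposure and between 1.18 and 1.87 after withdrawal, and BIRC3 between 0.24 and 2.13.

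After withdrawal MCL1 had log2 fold changes of 0.27, 0.22 and 0.09 and XIAP of 0.27, 0.23 and 0.18, none past the threshold. Their means over the 3 time points were 0.19 ± 0.08 and 0.23 ± 0.07 (SE, adjusted p = 0.148 and 0.05001). BCL2L1 had 0.17, 0.22 and 0.21, BCL2L2 0.15, 0.32 and 0.34 and BCL2 0.45, 0.49 and 0.20 at the same time points. In the mean over the 3, members passing were BCL2A1, CFLAR (1.28-fold, adjusted p = 0.00214) and BIRC2 (1.22-fold, adjusted p = 0.0405), beside 7.71% of all genes. Both were lost without replicate A (adjusted p = 0.329 and 0.655). Between the first and the last untreated controls no member differed past the threshold by edgeR or DESeq2, with 0 at an unadjusted p under 0.05, beside 0.0104% of all genes passing.

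As a description, the genes whose mean log2 CPM over the 12 groups followed a called member most closely were found among 13518 genes. For BCL2A1 they were ETS1 (Pearson's r = 0.99), STK17A (0.99) and the cytokine gene IL6 (0.99). For BIRC3 they were BCL2A1 (0.98), DOCK4 (0.98) and STK17A (0.98), and for BIRC2 HYCC1 (0.99), GFPT1 (0.97) and ACTR3 (0.97). Among the members r was 0.96 between BIRC2 and BIRC3, 0.97 between BCL2A1 and CFLAR, 0.93 between BCL2L1 and BCL2L2, and 0.12 between BCL2A1 and BCL2L1. The points share treatments and libraries.

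Of 10 partners of the cellular IAPs in NF-κB signalling, 5, 4 and 4 were higher past both thresholds at days 6, 15 and 21 and none was lower. Over all genes tested 2.77%, 4.24% and 4.26% passed both in either direction. TNFAIP3, which encodes the feedback inhibitor A20, had log2 fold changes of 4.05, 3.15 and 3.21, and NFKBIA, which encodes IκBα, 2.1748, 1.5021 and 1.89. TRAF1, an adaptor that binds the cellular IAPs through TRAF2, had 3.00, 2.27 and 2.45, and NFKB1 0.86, 0.73 and 0.68. All of these had an adjusted p under 0.05. After withdrawal 2, 1 and 2 of the 10 were past both thresholds, beside 1.8%, 0.954% and 0.897% of all genes. TRAF1 had 2.61 ± 0.52, 2.01 ± 0.51 and 2.03 ± 0.52 (SE), all past both. TNFAIP3 had 1.27 ± 0.21, 0.92 ± 0.21 and 1.09 ± 0.21, and its change from day 21 to the last time point, -2.11 ± 0.30, passed the test (adjusted p = 0.000134).

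The BH3-only genes, whose products oppose the BCL2 members, moved in both directions. Of 8, BID, whose product links caspase-8 to mitochondria, rose at all 3 time points of exposure. BCL2L11, which encodes BIM, fell at all 3, and the other 6 did not pass at a single time point there. In the mean over these 3 time points 3 of the 8 were higher and 3 lower by the adjusted p, beside 15.3% of all genes. BID had control means of 30.8 ± 1.99, 34.0 ± 2.62 and 37.7 ± 1.51 CPM (SD, n = 3) and IL-1β means of 80.9 ± 7.58, 66.2 ± 1.10 and 64.9 ± 7.75, with adjusted p of 3.00e-09, 1.16e-06 and 1.91e-05. BCL2L11 had 36.04 ± 6.26, 30.1 ± 1.71 and 28.2 ± 2.83 CPM against 20.9 ± 1.67, 17.98 ± 1.11 and 16.8 ± 4.38, with log2 fold changes of -0.78, -0.74 and -0.75 (adjusted p = 0.0132, 0.0155 and 0.0136). BMF and BIK had -1.28 ± 0.46 and 1.70 ± 0.64 (SE) at day 21, with adjusted p of 0.117 and 0.148. After withdrawal BMF was lower at day 6, at -1.95 ± 0.51 (adjusted p = 0.0311), and no other gene of the list was called. The response of BID changed by -0.71 ± 0.16 between day 21 and the last time point (adjusted p = 0.0270).

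**Figure D5:**
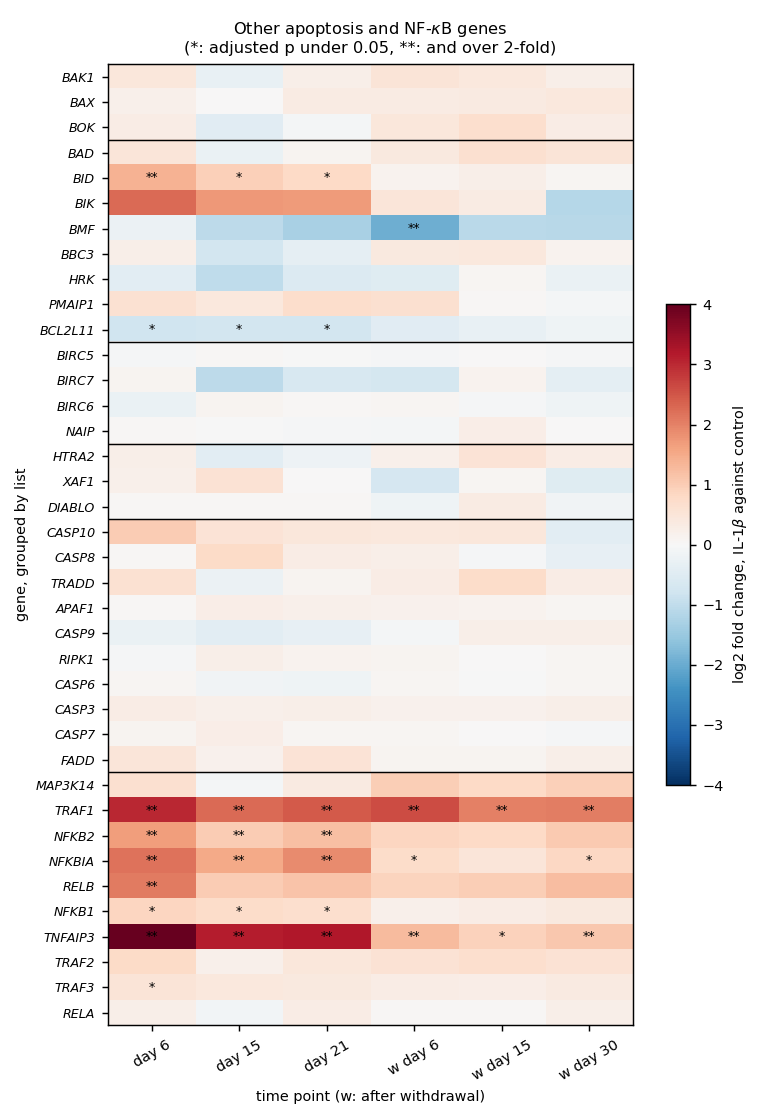
Log2 fold change of IL-1β against control (colour) for 38 genes of 6 lists, separated by lines, at 3 time points of exposure and 3 after withdrawal (w); 1 star marks an adjusted p under 0.05 and 2 stars also a fold change over 2. Stars sit in the BH3-only list (BID, BMF, BCL2L11) and in the NF-κB list.

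The remaining lists held no call at any of the 6 time points by edgeR. These were the 3 effectors BAX, BAK1 and BOK, 4 other IAP genes, 3 IAP antagonists, and 10 caspases and adaptors. At an unadjusted p under 0.05 the effectors, other IAP genes and antagonists held 0 genes each time, and the caspases and adaptors held 2, 2 and 1 during exposure and 0 after withdrawal. DESeq2 called 1 caspase or adaptor gene at day 21 and none of the rest. In the mean over the 3 time points of exposure edgeR called 2 caspases and adaptors higher and 1 lower by the adjusted p. The effectors, other IAP genes and antagonists held 0 in that mean, beside 15.3% of all genes. FADD, the adaptor for caspase-8 and cFLIP, had 0.56 ± 0.18 at day 21 (SE, adjusted p = 0.0560), BAX 0.33 ± 0.29 (adjusted p = 0.858) and BIRC5, which encodes survivin, -0.01 ± 0.19 (adjusted p = 1.000). The median log2 fold change at day 21 was 0.24 for the effectors, -0.04 for the other IAP genes, 0.0039 for the antagonists and 0.16 for the caspases and adaptors.

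Some reads could belong to overlapping or similar genes. The readthrough gene BCL2L2-PABPN1 covers 16.8% of the exon bases of BCL2L2 on the same strand and had at most 10 counts in a library. Reads on the shared bases can be set aside as ambiguous, so this count does not show how many BCL2L2 lost. Of the exon bases of BCL2L1, 41.3% lie opposite the antisense gene ABALON, and the strand setting of the counting is not given in the sources used here. BIRC2 and BIRC3 shared 11 stretches of 50 bases, 0.22% and 0.14% of each.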

How the data were processed

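RNA of A549 cells was made into libraries with a stranded mRNA kit and sequenced in 36 samples, grouped by the treatment and time point in their labels. The authors aligned single-end reads to GRCh37 and counted them per Ensembl gene, and the deposited values are these raw counts, without normalization. The submitters' processing notes name TopHat2 2.0.14, Bowtie2 2.2.5, HTSeq 0.6.1 and bcl2fastq 2.17. Reads on no gene (8.48% to 18.6% of all reads in a table) and ambiguous ones (2.62% to 4.18%) were left out of library sizes. Gene names and positions were matched by identifier to GENCODE v44lift37 for 55665 of 63677 genes.

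Counts were scaled by TMM, genes were kept by filterByExpr, and 1 quasi-likelihood model of edgeR 4.0.16 (R 4.3.3) with 12 group terms and 24 residual degrees of freedom gave each comparison, adjusted by Benjamini-Hochberg over 19180 genes. SE were computed from the F statistic. Median depth was 15902700 gene counts. The p-values measure the spread between 3 biological replicates per group of 1 cell line. The model was tested on simulated counts. Alternatives used DESeq2 1.42.0, other filters, a fit per time point, a replicate block, each replicate left out, and the 11 libraries of high mitochondrial share left out or as a covariate. The mean responses over 3 time points were added after seeing the data. They, and the tests between time points, take libraries of different time points as independent.

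All 9 members are named. Of each other list, at most the 4 genes with the smallest adjusted p at day 21 are named, and for members past both thresholds the 3 genes most alike among those with a mean log2 CPM of at least 1. Other genes, such as those beside BIRC2, were named after their values were seen. The members and lists were chosen with earlier results of these data known.

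Same-lettered libraries deviated together in all 3 pairs at day 21 (correlations 0.20 to 0.26) and at day 30 after withdrawal (0.31 to 0.46). This is taken as pairing from the data. At day 30 both B libraries were of high mitochondrial share, so a shared culture and a shared high share cannot be told apart there. At days 6 and 15 after withdrawal the pairs of unlike share had -0.11 and -0.34, and the others 0.56 to 0.72. The letters come from the labels. At every time point other than day 21 and day 30 after withdrawal at least 1 pair was below 0.1.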

Additional observations from a re-analysis of the deposited data

Results flagged for a closer look

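BIRC2 differed in its response between 2 time points by the test of the difference itself. From day 21 of IL-1β to day 30 after withdrawal its log2 fold change moved by -0.96 (adjusted p = 0.0239), and all 3 previously exposed libraries at day 30 lay within the range of their controls. The top of that range, 60.9 CPM, came from a control of high mitochondrial share. The other controls had 44.4 and 46.8 CPM, and the previously exposed libraries 48.2, 48.6 and 45.9. The adjusted p rose to between 0.163 and 0.684 when any 1 replicate was left out, and was 0.00131 without the libraries of high mitochondrial share. The groups hold 3 libraries each, so no sample was tested for standing apart within its group.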

How the results depend on the processing

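Of 642 alternative values for the 9 members at the 6 time points, 587 kept their direction and side of the adjusted p threshold, 22 lost the threshold, 14 gained it and 19 changed sign, none of them of a value that had been called. Requiring 10 counts in every library removed BCL2A1, so the members past both thresholds became 1 at day 6, 1 at day 21 and 0 at day 6 after withdrawal, and a separate fit per time point gave 0 there too. Leaving out a replicate gave 1 to 2 members at day 6, 1 to 2 at day 21 and 0 to 1 at day 6 after withdrawal. With the mitochondrial covariate, alone or with the replicate block, 1 member (BCL2A1) passed at days 15 and 30 after withdrawal and in the test between day 21 and the last time point, each in place of 0. Without the 11 libraries 1 passed at day 30. In the test between day 21 and the last time point, DESeq2's size factors and its Wald test gave 1, and leaving out a replicate 0 to 1. The cause was not tested.

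With the covariate alone, then with the replicate block, the values that changed sign were -0.0174 and -0.0288 for BCL2L1 at day 6, 0.1327 and 0.1425 at day 21, -0.0326 and -0.0459 at day 6 after withdrawal, -0.0697 and -0.0734 for BCL2L2 at day 6, and -0.0513 and -0.0562 at day 6 after withdrawal. With both terms BCL2L1 had -0.0001 at day 15 after withdrawal. Without the 11 libraries BCL2L1 had -0.0272 and BIRC2 0.0512 at day 30. Leaving out a replicate gave -0.2771 to 0.0025 for BCL2 at day 6, -0.533 to 0.0459 for BCL2L2 at day 15, -0.2061 to 0.0404 for BIRC2 at day 30 after withdrawal, and -0.01 to 0.313, -0.0289 to 0.3382 and -0.0386 to 0.3744 for BCL2L1 after withdrawal.

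At day 21 and day 30 after withdrawal, where all same-lettered pairs deviated together, the replicate block changed no call of a member. Past both thresholds were 2 and 0 members there. Elsewhere the block brought XIAP at day 15 past the threshold (0.38, adjusted p = 0.0496). Depth limits BCL2A1 and BCL2 most, with as few as 7 and 12 reads in a library.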
